A study of Mus musculus with 2 samples.

Results

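The 77 genes described here encode proteins of the mitochondrial ribosome, and they were followed across the cell types of the mouse brain and between mice whose Apoe gene was replaced by its human E3 or E4 form. They were taken by symbol, as every gene of the count matrices named Mrpl or Mrps with a number (and an a or b where there is one) that held at least 50 unique molecular identifiers (UMIs, one per captured transcript) over both libraries. All 77 such symbols among the 32285 genes of the files passed that minimum. The member with the fewest, Mrps2, held 1282 UMIs in the cells kept, so no member lay near the limit. The libraries were made by droplet-based single-cell RNA sequencing of brain cells that the labels call non-neuronal, with 1 library per genotype. A neuroprogenitor-like class, with the immature neuron gene Dcx among its leading genes, was found among them. Each library pooled right hemispheres, without brainstem and cerebellum, of 3 female mice aged 11 to 12 months that were homozygous for the human E3 or E4 allele, which in both stays under the control of the mouse Apoe promoter. After the filter, 11288 E3 and 13528 E4 cells remained, with medians of 3803.5 and 4102 UMIs per cell, and 44 cell barcodes occurred in both libraries.

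Because each genotype was read from 1 pooled library, E4 could not be tested against E3. A difference between genotypes cannot be told apart from a difference between the pools or library preparations. The same holds for the version of the counting software, Cell Ranger (6.1.2 for E3, 6.1.1 for E4). Levels are given as counts per 1000000 UMIs of the same cells (CPM). The ratio of E4 to E3 is given on the log2 scale, so that a negative value means a lower level in E4, with an exact 95% interval from the binomial split of the UMIs. All intervals cover counting error only.

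Mitochondria keep a small genome of their own, and its messenger RNAs are translated inside the organelle by a dedicated ribosome. The ribosomal RNAs of that ribosome come from the mitochondrial genome, whereas all of its proteins are encoded in the nucleus, made in the cytosol and imported. The large subunit, built of Mrpl proteins with a few others, joins amino acids, and the small subunit, built mainly of Mrps proteins, decodes the messenger. In mammals all products of this ribosome are subunits of the respiratory chain complexes and the ATP synthase. Of the 77 genes, 51 encode parts of the large subunit (Mrps30 and Mrps18a among them, in spite of their names) and 25 parts of the small subunit. Mrps36 is now counted with the oxoglutarate dehydrogenase complex. Counterparts in bacterial ribosomes are known for 45 of them.

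The members lie on 17 chromosomes, with 11 on chromosome 11 and 6 on chromosome 7. In the GENCODE vM21 annotation of GRCm38 (mm10), 32 of 77 members (41.6%) start within 1000 bases of a protein-coding gene on the opposite strand, against 10.8% of all 21625 protein-coding genes in the files. Mrpl46 and Mrps11 form such a pair with each other, and Mrps12 starts 172 bases from Sars2, which encodes the mitochondrial seryl-tRNA synthetase. RefSeq promoter windows (GRCm38.p6, 300 bases long) were found for 68 members. The letters CCGGAAG, bound by transcription factors of the ETS family, occurred on either strand in 25 of the 68 windows (36.8%) and in 9.93% of the windows of all 27025 genes. The NRF1 motif (GCGCA, any base, GCGC) occurred in 13 (19.1%, against 5.19%) and the YY1 motif AAGATGGCG in 8 (11.8%, against 1.64%). NRF1 and the ETS factor GABP are known regulators of nuclear genes for mitochondrial proteins. TATAAA was found in 7.35% of the members' windows and in 15.7% of all. The median G+C content was 58.0% in members and 52.8% in all genes. A match is a description of letters and not evidence of binding.

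The promoters below belong to members to which the expression results return. They run from 150 bases before to 30 bases after the RefSeq start, 5′ to 3′ on the strand of the gene. Capitals mark a match to the ETS letters, or in Mrpl9 to the NRF1 motif. They lie at chr7:28741792-28741971 (minus strand, Mrps12), chr3:94443186-94443365 (plus, Mrpl9), chr5:31613801-31613980 (plus, Mrpl33), chr14:54426759-54426938 (plus, Mrpl52) and chr16:92058186-92058365 (plus, Mrps6). Mrps12 and Mrpl9 were higher in the E4 library, Mrpl33 and Mrpl52 were lower in E4 in each of the 7 classes compared, and Mrps6 varied most between cell types and holds none of the 3 motifs.
Mrps12: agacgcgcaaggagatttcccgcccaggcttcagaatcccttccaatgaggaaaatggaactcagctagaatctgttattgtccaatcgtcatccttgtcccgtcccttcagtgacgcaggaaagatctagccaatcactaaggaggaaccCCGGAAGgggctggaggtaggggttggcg
Mrpl9: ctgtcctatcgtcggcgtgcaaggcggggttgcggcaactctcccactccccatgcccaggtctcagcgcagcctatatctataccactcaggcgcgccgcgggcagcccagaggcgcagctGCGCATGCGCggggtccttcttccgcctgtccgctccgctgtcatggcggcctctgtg
Mrpl33: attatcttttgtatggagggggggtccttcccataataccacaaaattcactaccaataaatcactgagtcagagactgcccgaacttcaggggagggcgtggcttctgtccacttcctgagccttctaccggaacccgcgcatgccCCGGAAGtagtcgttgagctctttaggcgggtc
Mrpl52: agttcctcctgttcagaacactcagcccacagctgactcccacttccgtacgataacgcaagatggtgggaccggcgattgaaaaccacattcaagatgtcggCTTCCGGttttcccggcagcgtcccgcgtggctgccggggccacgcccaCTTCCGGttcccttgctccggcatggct
Mrps6: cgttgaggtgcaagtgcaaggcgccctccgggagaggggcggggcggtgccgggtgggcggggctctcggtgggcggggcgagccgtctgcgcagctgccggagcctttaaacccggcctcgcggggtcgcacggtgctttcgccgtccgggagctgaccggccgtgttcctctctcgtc

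Cells were clustered and named from marker genes, and a class carries the ending "-like" because its name was rebuilt here. Of 11 named classes, 10 had at least 100 cells in each library and were compared for levels. The ratio of E4 to E3 was taken in the 7 classes with at least 200. Clusters of shallow astrocyte-like and microglia-like cells (14.0% of the E3 and 12.4% of the E4 library) and mixed clusters (2.32% and 2.41%) stayed out of the classes but are counted in values over all cells. The macrophage-like class held 421 cells. With finer clustering (Leiden resolution 2) it held 286, and 137 cells with T cell markers (65 in E3, 72 in E4) formed their own cluster. Values of macrophage-like cells may thus include T cells. In sums of this kind a lower level of a gene cannot be told apart from more RNA of other genes in the same cells.

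The summed level of the 77 genes was highest in choroid plexus-like cells, the secretory epithelium that makes cerebrospinal fluid. It stood there at 7639 CPM in E3 (95% interval 7565 to 7715) and 7476 CPM in E4. Neuroprogenitor-like cells, which held a cluster led by Dcx and one led by proliferation genes, followed with 6748 and 6421 CPM, then ependymal-like cells, which carry motile cilia and line the ventricles, with 5736 and 5438, and astrocyte-like cells with 5389 and 5074. These 4 classes held the same order in both libraries. Oligodendrocyte-like cells (4971 CPM in E3, 4696 in E4) and meningeal-like cells (4969 and 4862) had overlapping intervals in E3 and changed places in E4. Macrophage-like (4208 and 4176) and endothelial-like cells (4211 and 4062) also changed places. Microglia-like cells, the resident immune cells, stood lower at 3883 and 3758 CPM.

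Erythroid-like cells were lowest at 657 and 571 CPM. Haemoglobin genes filled 826593 and 827386 CPM of their UMIs, and with totals that leave out haemoglobin, mitochondrial and rRNA-overlapping genes their mean level over both libraries was 4141 CPM, above that of microglia-like cells (4034). Among the other 9 classes the sum spanned 1.98-fold, from microglia-like to choroid plexus-like cells.

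**Figure D1:**
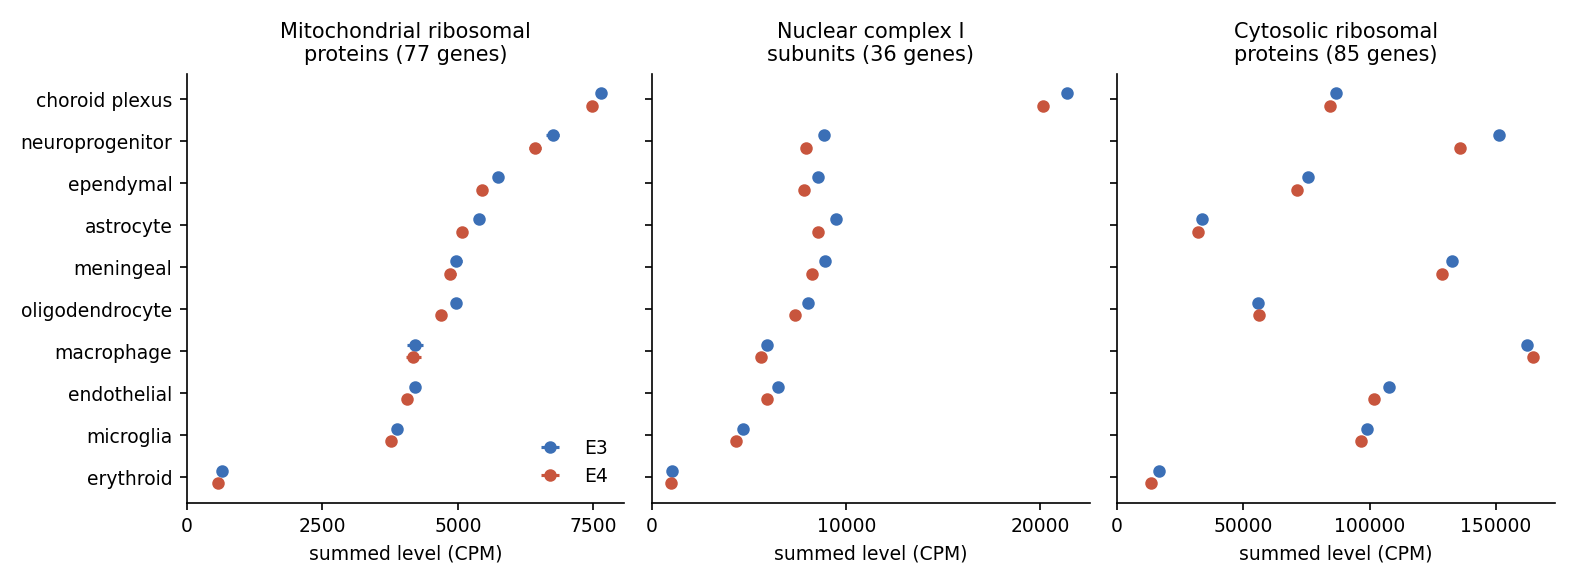
Summed level in CPM (horizontal axis, linear) of the 77 mitochondrial ribosomal protein genes, 36 nuclear complex I genes and 85 cytosolic ribosomal protein genes in 10 cell classes (vertical axis) for E3 (blue) and E4 (red), with exact Poisson 95% intervals that are mostly narrower than the points. The members are highest in choroid plexus-like cells (7639 and 7476 CPM), whereas cytosolic ribosomal proteins are highest in macrophage-like cells.

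The order of cell types was not that of the cytosolic ribosome. Cytosolic ribosomal protein genes were highest in macrophage-like cells (162424 CPM in E3, 164851 in E4) and, erythroid-like cells aside, lowest in astrocyte-like cells (33706 and 31985 CPM). For each 100 UMIs of cytosolic ribosomal protein genes, astrocyte-like cells therefore held 16.0 UMIs of members in E3 and 15.9 in E4. Oligodendrocyte-like cells held 8.90 and 8.36, choroid plexus-like cells 8.81 and 8.86, microglia-like cells 3.93 and 3.89, and macrophage-like cells 2.59 and 2.53. Nuclear genes of complex I, the first enzyme of the respiratory chain, shared their highest class with the members (21380 and 20119 CPM in choroid plexus-like cells). Astrocyte-like cells came next with 9454 and 8567 CPM.

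Large subunit genes gave 2.06 UMIs for each UMI of small subunit genes in E3 and 2.02 in E4, with intervals that did not overlap. By class the quotient ran from 1.89 in choroid plexus-like to 2.34 in neuroprogenitor-like cells in E3, and from 1.85 in choroid plexus-like to 2.30 in macrophage-like cells in E4. The quotient depends on how well each transcript is captured and does not count proteins.

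How far single members spread between cell types, compared with other genes, depended on the erythroid-like cells. Over all 10 classes the median member differed 13.3-fold between its highest and lowest class, against 17.7-fold for all 10415 genes with at least 1000 UMIs, 11.7-fold for cytosolic ribosomal proteins and 17.0-fold for nuclear complex I genes. Over the 9 classes without erythroid-like cells, a set chosen after the values were seen, it differed 2.44-fold (quartiles 1.94 and 2.90), against 6.67-fold for all genes, 5.01-fold for cytosolic ribosomal proteins and 3.86-fold for complex I genes. The order of members and cytosolic ribosomal proteins thus turned with the erythroid-like cells. Choroid plexus-like cells were the highest class for 26 members and neuroprogenitor-like cells for 24. Ependymal-like and astrocyte-like cells were highest for 9 each, oligodendrocyte-like and microglia-like cells for 3 each, and endothelial-like, meningeal-like and macrophage-like cells for 1 each. The highest class was the same in both libraries for 62 of 77 members. Microglia-like cells were the lowest of the 9 classes for 28 members, and erythroid-like cells were the lowest of all 10 for 77 of 77.

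Among the members with choroid plexus-like cells on top, Mrps6, a small subunit protein, had the widest span of all. It held 319 CPM in E3 and 320 CPM in E4 there, 221 and 185 CPM in ependymal-like cells, 83.8 and 78.7 in astrocyte-like cells, 33.0 and 21.1 in macrophage-like cells and 29.9 and 27.4 in microglia-like cells. Its highest class exceeded its lowest 67.6-fold with erythroid-like cells and 11.8-fold without them. The gene overlaps Slc5a3, a carrier of myo-inositol, on the same strand, and reads from the stretch they share cannot be assigned to one of them. Slc5a3 does not cover the 3′ end of Mrps6. Slc5a3 was itself high in choroid plexus-like (90.0 and 81.0 CPM) and ependymal-like cells (108 and 90.9), with 67.9 and 67.5 CPM in oligodendrocyte-like cells. The share of these reads in the span of Mrps6 was not tested.

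Mrpl58, a peptidyl-tRNA hydrolase built into the large subunit, reached 259 and 243 CPM in choroid plexus-like cells against 45.9 and 37.6 in macrophage-like cells. Mrpl42 reached 328 and 317 CPM there, against 77.9 and 80.1 in microglia-like cells. Mrps21 had 428 and 378 CPM in choroid plexus-like cells, against 109 and 101 in microglia-like cells. Mrpl57 had 214 and 216 CPM, against 55.0 and 47.6 in endothelial-like cells.

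Other members departed from this order. Mrps5, a small subunit protein with a bacterial counterpart, was lowest in choroid plexus-like cells (35.5 and 36.8 CPM, erythroid-like cells aside) and highest in neuroprogenitor-like cells (135 and 127), with 104 and 105 CPM in astrocyte-like cells. Mrpl39 stood highest in ependymal-like cells (70.2 and 47.2 CPM) and, erythroid-like cells aside, had its lowest mean level in meningeal-like cells (12.3 and 10.3). In E3 macrophage-like cells, with 8 UMIs, lay slightly lower at 11.5 CPM. Mrpl48 was highest in oligodendrocyte-like cells, with 149 and 147 CPM against 52.2 to 91.3 CPM in the other classes compared, erythroid-like cells aside. Mrpl54 stood high in choroid plexus-like (145 and 135 CPM) and meningeal-like cells (139 and 119) and low in astrocyte-like cells (40.6 and 38.1).

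Mrps7 (71.5 and 67.5 CPM) and Mrpl47 entered among the widest spans because erythroid-like cells held few UMIs of them, 2 and 1 for Mrps7. Mrps22, highest in neuroprogenitor-like cells (47.0 and 40.2 CPM), likewise had 1.84 and 1.44 CPM in erythroid-like cells. Mrps27 had no UMI in erythroid-like cells of either library, and is given no span. The median of 13.3-fold over 10 classes counts it as wider than the other members, and without it the median was 13.2-fold. The exact Poisson upper limits of Mrps27 in those cells were 3.40 CPM in E3 and 5.31 in E4. The narrowest spans over the 10 classes belonged to Mrpl4 (6.34-fold), Mrpl46 (6.68), Mrpl24 (6.79) and Mrps2 (6.96), each with erythroid-like cells as the low end. Without those cells Mrps2 spanned 2.90-fold, and the narrowest spans were those of Mrpl43 (1.52-fold), Mrpl37 (1.56), Mrpl24 (1.60) and Mrpl17 (1.64). Mrps33 had the most UMIs of all members (11186 in E3 and 13042 in E4), with 396 and 389 CPM in choroid plexus-like cells and, erythroid-like cells aside, its lowest mean level in microglia-like cells (143 and 136 CPM). Mrpl52, Mrps21 and Mrps14 came next in UMIs.

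**Figure D2:**
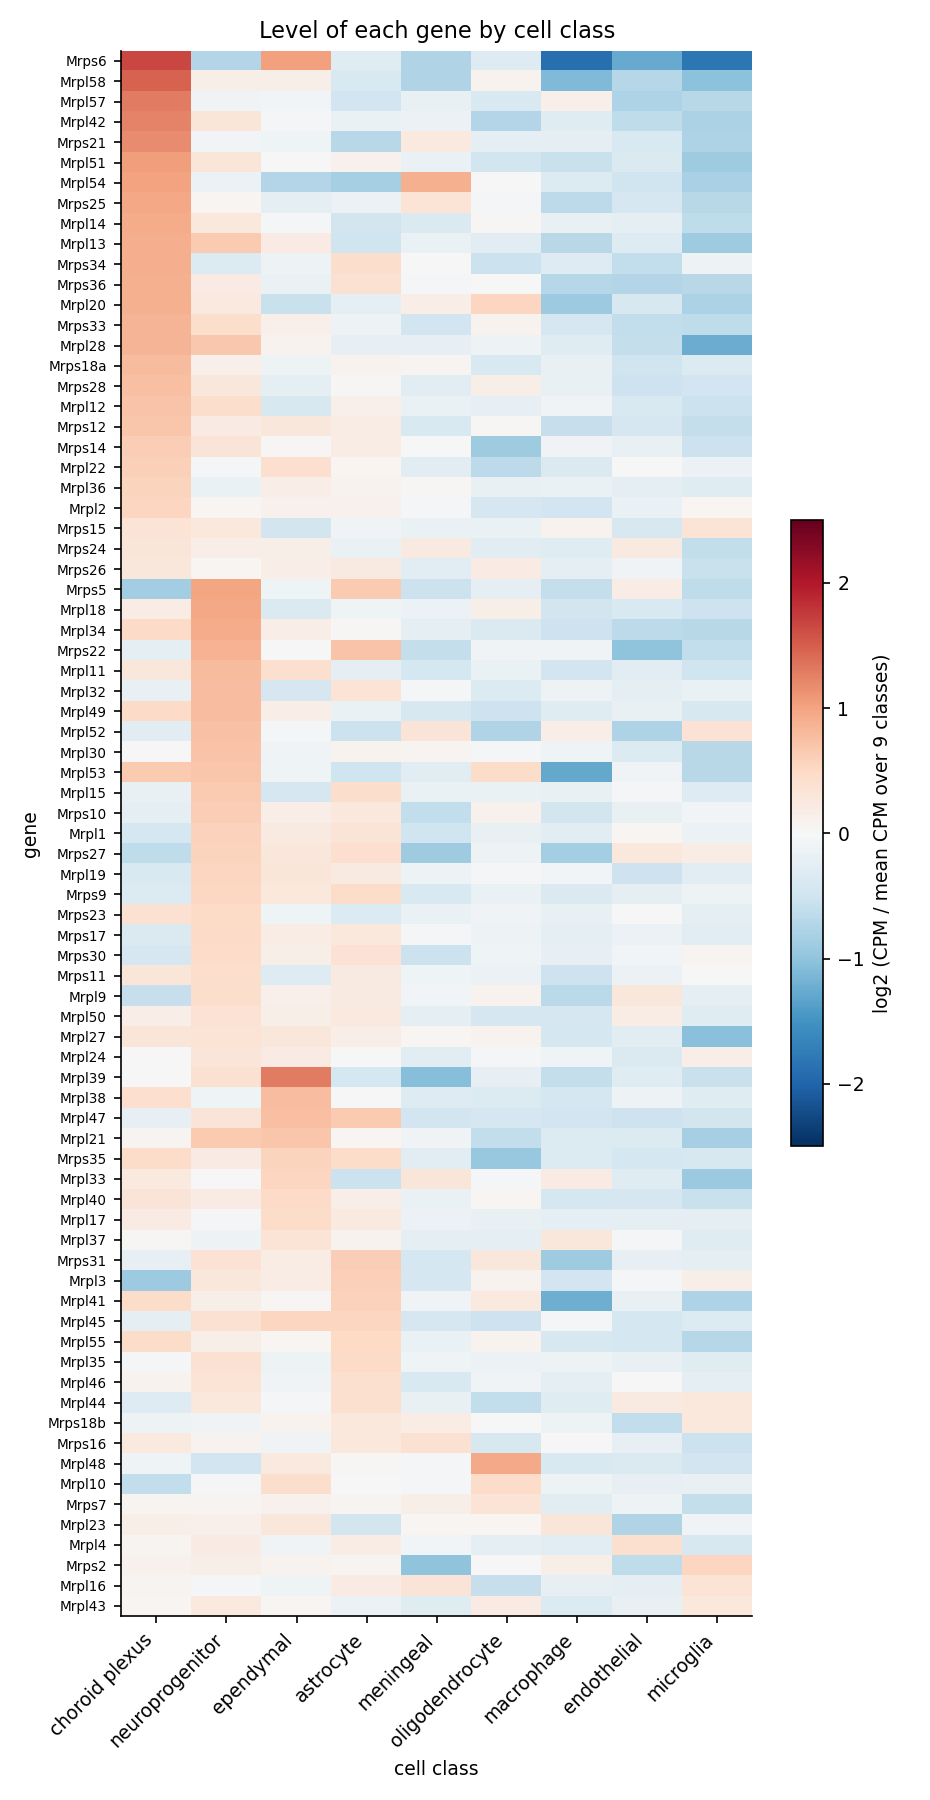
Level of each of the 77 genes (rows) in 9 cell classes (columns) as the log2 of its CPM, averaged over both libraries, relative to its mean over the classes (colour scale). Rows are grouped by the class where a gene is highest, 26 in choroid plexus-like and 24 in neuroprogenitor-like cells, and Mrps6 and Mrpl58 show the strongest choroid plexus-like excess.

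Clusters within a class also differed. The neuroprogenitor-like class held a cluster led by the proliferation genes Top2a and Mki67, with a member sum of 7222 CPM in E3, and one led by Dlx6os1, Adarb2 and Dcx, with 6379 CPM. The ratio of E4 to E3 was 0.95 in both. The microglia-like cluster led by Atf3, Ccl4 and Egr1, with 581 E3 and 927 E4 cells, had nearly the same sum in both genotypes (3680 and 3685 CPM), whereas the ratio was 0.96 in the other 2 microglia-like clusters. The immediate-early genes that lead it are known to be induced during warm enzymatic dissociation.

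Between genotypes the members were slightly lower in E4. Over all cells their sum was 5029 CPM in E3 and 4779 CPM in E4, a log2 ratio of -0.073 (-0.081 to -0.066). Of the 77 genes, 55 had a ratio under 1 (71.4%), against 41.1% of the 16277 genes compared and 34.8% of those with at least 1000 UMIs. The median log2 ratio was -0.057 over members and 0.039 over all genes. None was lower in E4 by at least 1.2-fold, where 10.7% of all genes and 3.38% of those with at least 1000 UMIs were, and 1, Mrps12, was higher by as much, against 11.2% of all genes and 7.85% of those with at least 1000 UMIs. The whole interval lay below 0 for 32 members and above 0 for 4. Of all genes compared, 15.9% had an interval below 0 and 28.8% one above 0, and of those with at least 1000 UMIs, 16.6% and 38.7%.

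Large subunit genes were lower in 38 of 51 cases (median -0.064) and small subunit genes in 16 of 25 (median -0.039). Genes with a bacterial counterpart were lower in 31 of 45 and those without one in 23 of 31. No test compares these groups.

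The lowest ratio belonged to Mrpl33, a small protein of the large subunit, at 128 CPM in E3 (6900 UMIs) and 107 CPM in E4 (7211 UMIs), a log2 ratio of -0.26 (-0.31 to -0.21). Mrpl1 had a log2 ratio of -0.21 (31.4 and 27.1 CPM) and Mrps27 one of -0.20 (651 and 709 UMIs). Mrps21 came to -0.20 (164 and 143 CPM), Mrpl52 to -0.18 (178 and 156 CPM) and Mrpl34 to -0.18 (120.2 and 106 CPM). Mrps6 (-0.17) and Mrpl50 (-0.15) completed the 8 lowest. In all 8 genes the whole interval lay below 0, and all 8 stood nearer to 1 than a 1.2-fold difference.

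At the other end, Mrps12 stood apart at a log2 ratio of 0.45. Mrps18b followed with 0.14 (24.4 CPM in E3, 27.0 in E4), Mrpl10 with 0.13 (18.4 and 20.2 CPM) and Mrpl9 with 0.11 (32.4 and 35.0 CPM), each with an interval above 0. The intervals of Mrps2 (0.11), Mrpl47 (0.083), Mrps11 (0.080) and Mrpl2 (0.079) held 0. Mrps18b and Mrpl10 each overlap a transcript on the opposite strand at their 3′ end. So do members that were lower in E4, Mrpl33 (with Rbks) and Mrpl24 (with Rrnad1) among them. Mrps18a, a relative of Mrps18b in the large subunit, was level with 58.1 and 58.3 CPM.

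**Figure D3:**
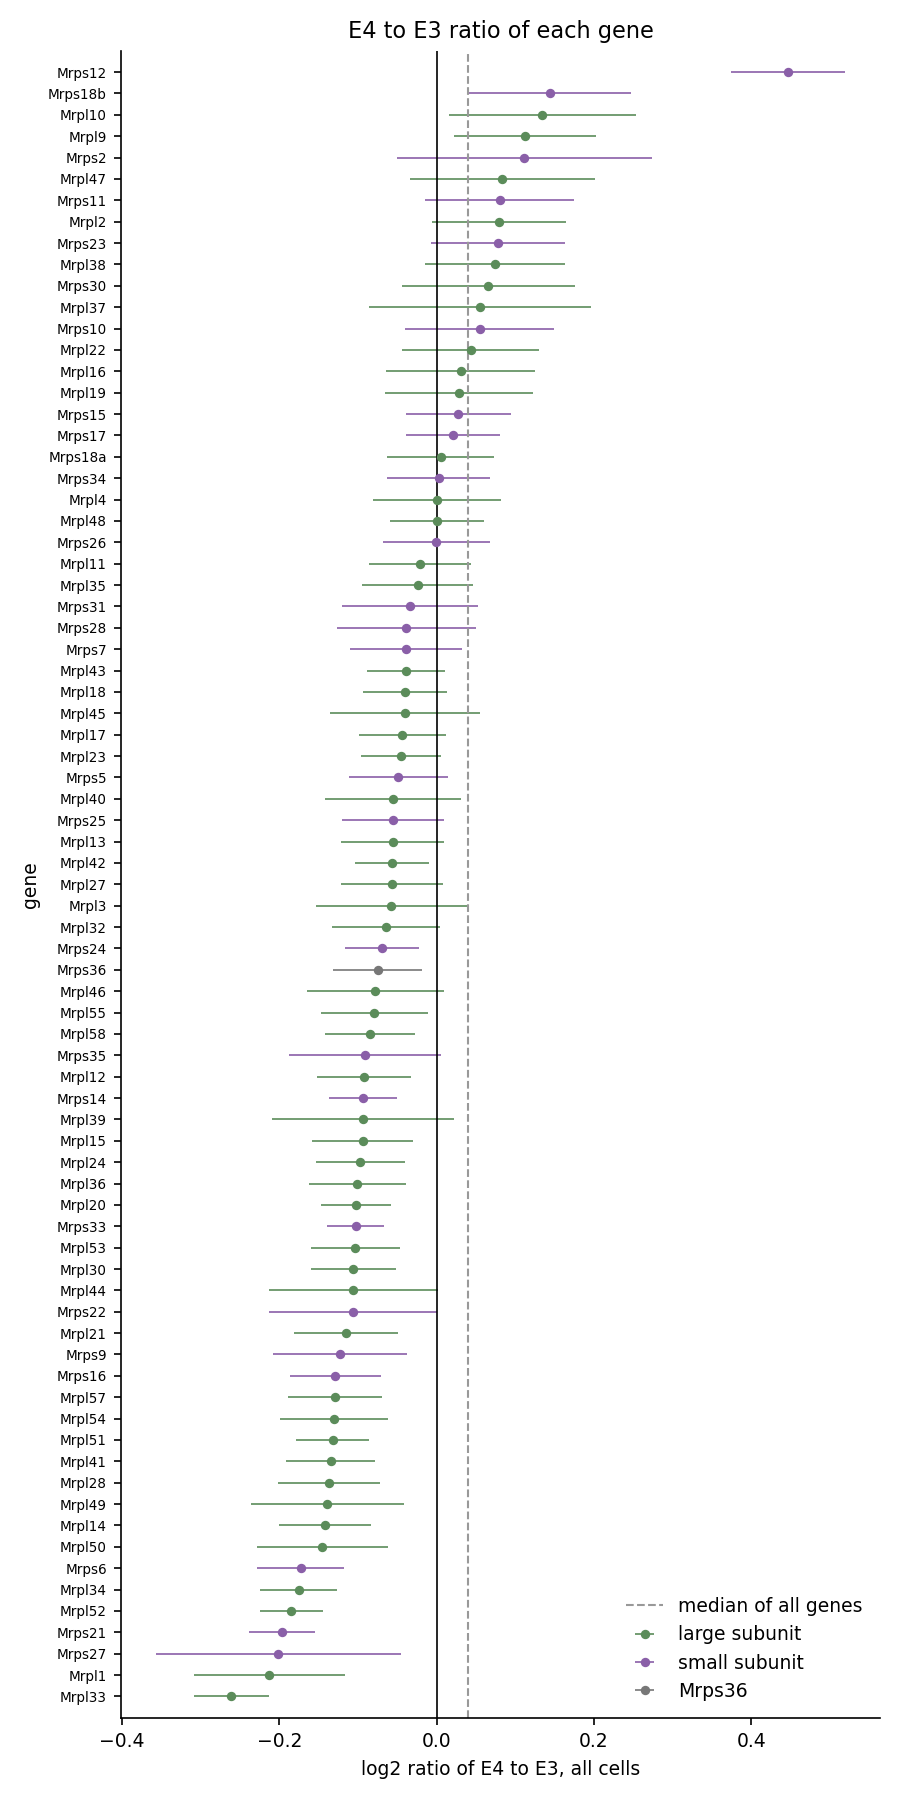
Log2 ratio of E4 to E3 over all cells (horizontal axis) for each of the 77 genes (vertical axis), with exact 95% binomial intervals, in green for the large subunit, purple for the small subunit and grey for Mrps36. The dashed line is the median of all genes (0.039), 55 genes lie left of 0, and Mrps12 lies alone on the right at 0.45.

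Mrps12, which encodes a protein of the decoding centre of the small subunit with a counterpart in bacteria, was the one member that differed by more than 1.2-fold over all cells. It lies at chr7:28739641-28741820 on the minus strand, 9.04 Mb from Apoe on the same chromosome. It held 45.4 CPM in E3 (2451 UMIs) and 61.9 CPM in E4 (4184 UMIs), a ratio of 1.36 and a log2 ratio of 0.45 (0.37 to 0.52). The value was above 0 in 7 of 7 classes and the interval in 5 of them.

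By class the log2 ratio of Mrps12 was 0.75 (0.49 to 1.01) in endothelial-like cells, with 30.6 CPM in E3 and 51.4 in E4. It was 0.60 (0.41 to 0.79) in choroid plexus-like cells, with 71.1 and 107.7 CPM, and 0.56 (0.25 to 0.87) in ependymal-like cells, with 54.4 and 80.1 CPM. Astrocyte-like cells had 52.8 and 72.2 CPM, a log2 ratio of 0.45 (0.31 to 0.59), and microglia-like cells 32.8 and 40.5 CPM, a log2 ratio of 0.30 (0.12 to 0.49). The microglia-like clusters did not share this difference alike. Mrps12 had 190 UMIs in E3 and 362 in E4 in the cluster led by Slc2a5 (1652 and 1875 cells). It had 66 and 163 in the one led by Atf3 (581 and 927 cells). In the one led by Rgs1 (875 and 927 cells) it had only 129 and 146. The intervals held 0 in neuroprogenitor-like cells (0.31, from 102 and 163 UMIs) and in oligodendrocyte-like cells (0.062, from 288 and 352 UMIs). The interval of endothelial-like cells lay above that of oligodendrocyte-like cells (-0.17 to 0.29). Its lower limit of 0.492 only just passed the upper limit of microglia-like cells, 0.489. One endothelial-like cluster (197 E3 and 311 E4 cells), with 40.7% of its cells marked as doublets, had 13 and 75 Mrps12 UMIs. The other (872 and 1264 cells) had 160 and 374. The part of the marked cluster in the class ratio was not tested. When every cell was thinned to 1000 UMIs, the value of oligodendrocyte-like cells was -0.14, that of choroid plexus-like cells 0.22 and that of ependymal-like cells 0.97. Outside these 7 classes, meningeal-like cells had 27.3 CPM in E3 and 57.8 in E4 (53 and 107 UMIs), and the shallow astrocyte-like cluster 41.8 and 86.0 CPM (58 and 103 UMIs). The intervals held 0 in macrophage-like cells (33.0 and 41.1 CPM, -0.48 to 1.14), in erythroid-like cells (6 and 7 UMIs) and in the shallow microglia-like cluster (6 and 14 UMIs).

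Sars2, which starts next to Mrps12 on the opposite strand, had few UMIs (243 in E3 and 264 in E4) and a log2 ratio of -0.20 (-0.46 to 0.052). The other members on chromosome 7, Mrpl46 (-0.078), Mrpl23 (-0.045), Mrpl17 (-0.043), Mrpl48 (0.0006) and Mrps11 (0.080), had intervals that held 0. They lie 59.1 to 122.8 Mb from Apoe. Mrpl46 and Mrps11, which overlap at their starts on opposite strands, thus stood on opposite sides of 0.

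In its levels across the 10 classes, averaged over both libraries, Mrps12 was most like Mrps33 (Pearson r = 0.99), Mrpl40 (0.99) and Mrpl55 (0.98). The classes share their libraries, and the low erythroid-like value bears on all 3 correlations.

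**Figure D4:**
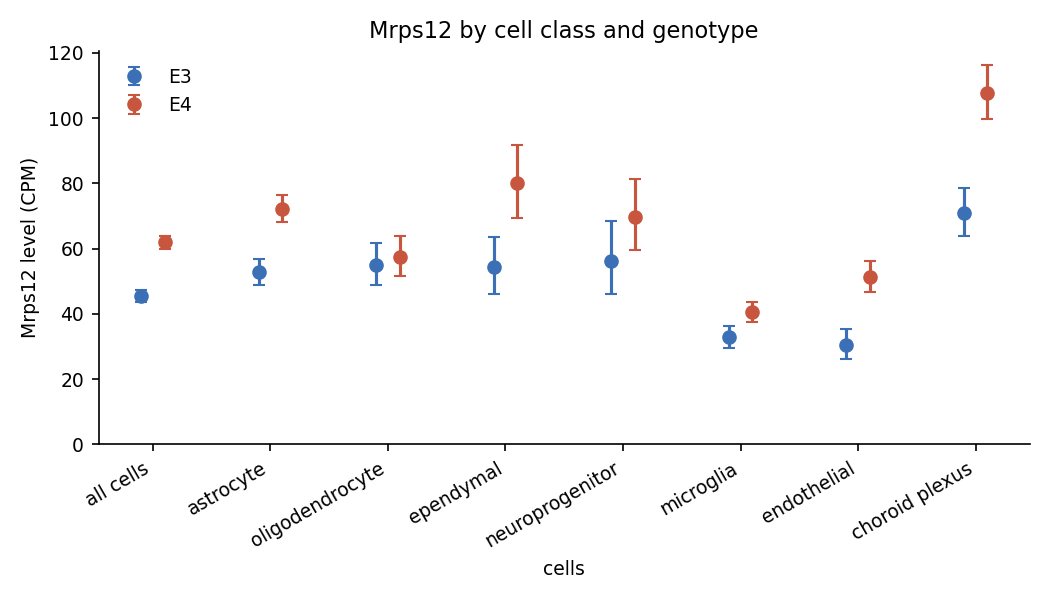
Mrps12 level in CPM (vertical axis, linear from 0) over all cells and in 7 classes for E3 (blue) and E4 (red), with exact Poisson 95% intervals. E4 lies above E3 throughout, from 30.6 against 51.4 CPM in endothelial-like cells to 55.1 against 57.5 CPM in oligodendrocyte-like cells.

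The sum of the members was lower in E4 in 7 of 7 classes, although with cells thinned to 1000 UMIs it was level in endothelial-like cells (0.0079). The log2 ratio of the sum was -0.087 (-0.101 to -0.072) in astrocyte-like, -0.082 in oligodendrocyte-like, -0.077 in ependymal-like, -0.072 in neuroprogenitor-like, -0.052 in endothelial-like, -0.047 in microglia-like and -0.031 (-0.051 to -0.012) in choroid plexus-like cells. With marked doublets kept, the interval of astrocyte-like cells did not overlap those of choroid plexus-like and microglia-like cells. Without marked doublets the astrocyte-like value was -0.066, and the separation of the classes was not examined in that setting. Clusters within the astrocyte-like class differed. The one led by Crym, Hes5 and Lhx2 (632 E3 and 617 E4 cells) was level at -0.0017 (-0.031 to 0.027). Those led by Igsf1 and by Chrdl1 had -0.066 and -0.098. One led by Phkg1 had -0.13, but 97.9% of its cells were marked as doublets. A small one led by Utp14b had 0.17, with an interval that held 0. The part of the cluster mix in the class ratio was not tested. In the shallow clusters, which are in no class, the log2 ratio was -0.005 for astrocyte-like and 0.11 for microglia-like cells, with intervals that held 0.

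Single members are ranked within a class where they had at least 100 UMIs over both libraries. In astrocyte-like cells 60 of 77 members had a ratio under 1, against 43.6% of all genes compared there, and the median was -0.075 against 0.029. The whole interval lay below 0 for 19 members (9.67% of all genes there) and above 0 for 3 (16.6%), which were Mrps12, Mrpl23 and Mrps18b. The lowest were Mrpl1 (40.8 CPM in E3, 32.1 in E4, log2 ratio -0.34), Mrpl57 (69.4 and 57.2 CPM, -0.28) and Mrpl33 (109 and 90.3 CPM, -0.28). Mrps18b (0.22) and Mrpl23 (0.12) followed Mrps12 at the top. Mrpl9, a large subunit protein that the study lists for astrocytes, had 37.8 and 40.1 CPM, with an interval that held 0 (-0.083 to 0.26). The Phkg1-led cluster of 118 E3 and 223 E4 cells in this class was marked almost wholly as doublets (97.9% of its cells). Without marked cells the log2 ratio of the sum in astrocyte-like cells was -0.066.

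In oligodendrocyte-like cells 54 of 77 members were under 1, against 42.2% of all genes. Mrps9 (37.3 and 27.9 CPM, log2 ratio -0.42), Mrps21 (169 and 130.2 CPM, -0.37) and Mrpl33 (155 and 124 CPM, -0.32) were lowest. Mrpl16 was highest with 15.3 and 23.4 CPM (0.61, from 80 and 143 UMIs), followed by Mrps10 (0.30) and Mrps16 (0.23). Mrps12 was not among them.

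In microglia-like cells 50 of 77 members were under 1, against 39.8% of all genes. Mrps27 (-0.31), Mrps22 (-0.24) and Mrpl50 (-0.24) were lowest, and Mrpl10 (0.28) and Mrps2 (0.21) came after Mrps12. In endothelial-like cells 45 of 77 members were under 1, against 37.2% of all genes. The lowest were Mrpl50 (283 and 350 UMIs, -0.32), Mrpl24 (-0.30) and Mrps6 (-0.26), and after Mrps12 came Mrps18b (13.3 and 19.2 CPM, 0.54) and Mrpl37 (0.44).

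Ependymal-like cells had 51 of 77 members under 1, against 47.2% of all genes, with 203 and 209 cells in the libraries. Mrpl39 had a log2 ratio of -0.57 there (70.2 and 47.2 CPM), Mrpl40 one of -0.45 and Mrpl16 one of -0.39, while Mrpl47 (0.52) and Mrpl15 (0.42) followed Mrps12. Neuroprogenitor-like cells had 45 of the 76 members with at least 50 UMIs under 1, against 39.3%, with Mrpl40 (-0.50), Mrpl21 (-0.38) and Mrpl54 (-0.38) lowest and Mrpl47 (0.47), Mrpl22 (0.43) and Mrpl39 (0.38) highest. The intervals of those 3 highest values held 0. In choroid plexus-like cells 44 of 77 members were under 1, against 43.4% of all genes, with medians of -0.014 and 0.036. Mrpl3 (-0.34), Mrpl10 (-0.29) and Mrps9 (-0.27) were lowest there, all with intervals that held 0, and Mrps10 (0.25) and Mrpl38 (0.19) followed Mrps12.

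Members that differed by at least 1.2-fold within a class are counted out of 77, or out of 76 in neuroprogenitor-like cells. Beside each count stands the share of all genes compared in that class. These shares, and the interval shares given for astrocyte-like cells, take in every gene with at least 50 UMIs there. They are not matched to the members in UMIs. Over all cells the share lower by at least 1.2-fold was 10.7%, but 3.38% among genes with at least 1000 UMIs. In astrocyte-like cells 4 members were lower in E4 by as much (7.79% of all genes) and 1 was higher (14.6%). In microglia-like cells 1 was lower (6.52%) and 2 were higher (12.0%). Choroid plexus-like cells had 4 lower (11.5%) and 1 higher (16.9%), and oligodendrocyte-like cells 4 lower (8.73%) and 2 higher (18.3%). Endothelial-like cells had 2 lower (6.54%) and 7 higher (18.6%). The smallest classes held more, with 8 lower (13%) and 6 higher (16.5%) in ependymal-like cells and 15 lower (10.4%) and 9 higher (25.7%) in neuroprogenitor-like cells.

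Across the 7 classes, 13 of the 77 members had a ratio under 1 in every class and 3 a ratio above 1 in every class. Of the 9027 genes with at least 20 UMIs in each of these classes, which include all 77 members, 3.81% were under 1 and 8.47% above 1 in every class. The 13 were Mrpl33, Mrpl52, Mrpl34, Mrpl44, Mrpl14, Mrpl41, Mrpl51, Mrpl36, Mrpl30, Mrpl24, Mrps33, Mrpl43 and Mrps24, of which 11 belong to the large subunit. Mrpl33 and Mrpl52 each had the whole interval below 0 in 6 of the 7 classes. Mrpl33 ranged from -0.32 in oligodendrocyte-like to -0.089 in choroid plexus-like cells, and Mrpl52 from -0.38 in ependymal-like to -0.064 in oligodendrocyte-like cells. The 3 on the other side were Mrps12, Mrps18b and Mrpl38, and for Mrpl38 no single interval lay above 0. Outside the 7 classes, Mrps18b was lower in E4 in macrophage-like cells, with 31.5 and 14.1 CPM (22 and 12 UMIs). Its log2 ratio there was -1.16 (-2.31 to -0.085). In meningeal-like cells it had 24.7 and 31.9 CPM, with an interval that held 0. These members are described after their values were seen.

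The other genes of mitochondrial translation are given by list. The 6 other protein subunits of the mitochondrial ribosome, which the symbol rule leaves out, were all lower in E4 over all cells, with a median log2 ratio of -0.085. Among them Mrps18c had 80.6 CPM in E3 and 68.9 in E4 (-0.23) and Chchd1 114 and 104 CPM (-0.13). Of 12 translation factors, 4 were lower (median 0.036), with Tufm, the elongation factor that brings in aminoacyl-tRNA, at 0.054 and Mrrf, the recycling factor, at -0.22. Within classes the median of these factors lay on either side of 0, from -0.18 in neuroprogenitor-like to 0.075 in astrocyte-like cells. Of 27 factors that assemble the ribosome or act on its RNA, 12 were lower (median 0.003), and Eral1, a chaperone of the small subunit RNA, was higher by more than 1.2-fold with a log2 ratio of 0.48 (0.26 to 0.70, from 263 and 459 UMIs).

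Of 20 mitochondrial aminoacyl-tRNA synthetases and their partners, 9 were lower (median 0.005). Lars2 (-1.35) overlaps a sequence that also catches rRNA reads, moved with the rRNA-overlapping gene Gm42418 (-1.17) and cannot be read as expression. Wars2 stood at 0.36. Of 11 genes for transcription and copying of the mitochondrial genome, 6 were lower (median -0.002), with Tfam, which packs that genome, at -0.099. The 13 mitochondrially encoded proteins, which this ribosome makes, had 6 transcripts lower and a median of 0.004.

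Nuclear complex I genes were lower in E4 in 31 of 36 cases, with a median of -0.14. Those with the most UMIs included Ndufa13 (573 and 498 CPM, -0.20) and Ndufs5 (409 and 356 CPM, -0.20), both small accessory subunits. In each of the 7 classes the complex I median lay below that of the members, from -0.15 in endothelial-like to -0.066 in choroid plexus-like cells. Cytosolic ribosomal protein genes were lower in 48 of 83 cases over all cells (median -0.014). Within classes they had medians of -0.070 in astrocyte-like, -0.16 in neuroprogenitor-like, -0.080 in endothelial-like and 0.010 in oligodendrocyte-like cells.

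**Figure D5:**
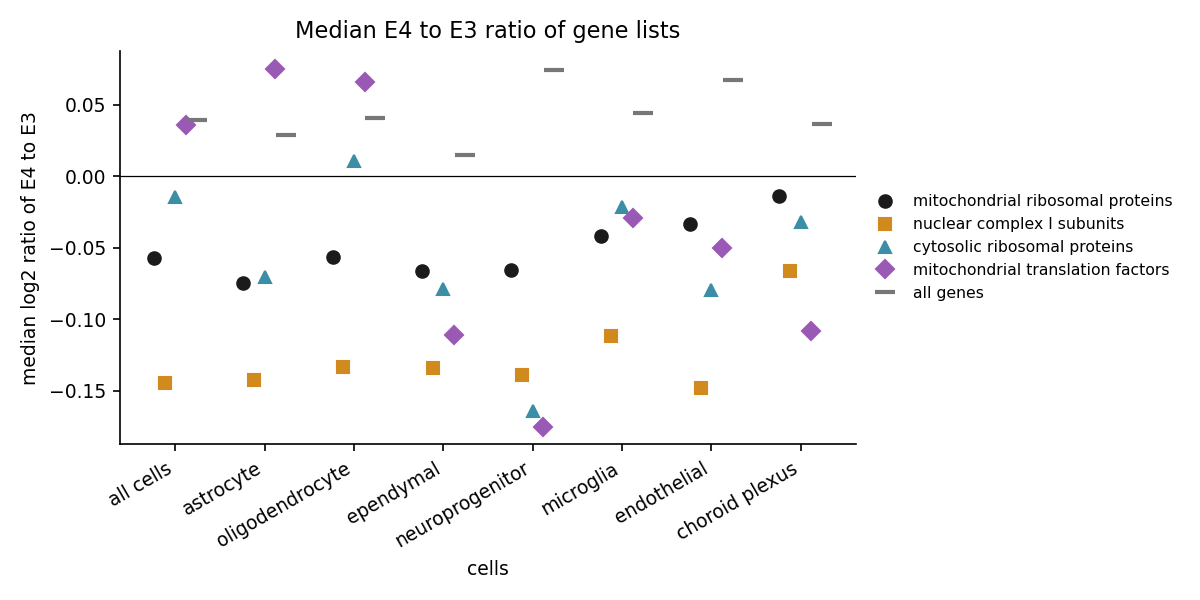
Median log2 ratio of E4 to E3 (vertical axis) of the 77 members (black circles), nuclear complex I genes (orange squares), cytosolic ribosomal proteins (blue triangles), mitochondrial translation factors (purple diamonds) and all genes (grey bars), over all cells and in 7 classes. The members lie below 0 in every column and below the bar of all genes, and complex I genes lie below the members.

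Several signals of cell state and preparation differed between the libraries. The summed immediate-early genes were at 4152 CPM in E3 and 5600 in E4 over all cells, and 22 of 22 were higher in E4 (median log2 ratio 0.41). In astrocyte-like cells they stood at 828 and 1296 CPM, and in endothelial-like cells at 5302 and 5424. The rRNA-overlapping gene Gm42418 was at 27156 CPM in E3 and 12041 in E4, haemoglobin genes at 17090 and 8646, and mitochondrially encoded genes at 67972 and 70133. Most haemoglobin UMIs lay in erythroid-like cells (897664 of 922308 in E3, 574804 of 584319 in E4). In the other classes haemoglobin was also lower in E4, from 1850 and 89.5 CPM in neuroprogenitor-like to 1613 and 1113 CPM in oligodendrocyte-like cells. The part of all these signals in the ratios of the members was not tested. With totals that leave out the mitochondrial, haemoglobin and rRNA-overlapping genes, the log2 ratio of the sum over all cells was -0.110 and 63 of 77 members were lower, and the median of all genes was 0.003.

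The level also varied with the depth of a cell. Cells of each class and library were divided into 4 equal parts by their UMIs. In the shallowest part of the astrocyte-like cells the sum was 5051 CPM in E3 (4945 to 5158) and 5113 in E4 (5018 to 5209), so that the intervals overlapped, and in the deepest it was 5371 (5309 to 5433) and 4944 (4890 to 4998). Microglia-like cells had 3788 and 3816 CPM in the shallowest part. In the next part they had 4051 (3974 to 4129) and 3814 (3751 to 3878). In the deepest they had 3758 (3700 to 3817) and 3702 (3653 to 3751), with overlapping intervals. Endothelial-like cells had 4217 and 4395 in the shallowest and 4019 and 3859 in the deepest. The parts were cut within each library and are not matched in depth. In the shallowest microglia-like part the medians were 2417.5 UMIs in E3 and 3016 in E4. The lower sum in E4 was thus not seen in the shallowest part of these 3 classes.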

How the data were processed

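Cells of 2 libraries, 1 per genotype, were profiled with a droplet 3′ kit after warm enzymatic dissociation of brain tissue. The deposited matrices hold UMI counts per gene and cell, not normalized, which the authors made with Cell Ranger (6.1.2 for E3 and 6.1.1 for E4, per the file headers) and mm10. The study's filter of 50 to 50000 UMIs and at most 30% mitochondrial UMIs kept 11288 of 11485 E3 and 13528 of 13802 E4 barcodes, with 53968601 and 67584777 UMIs. The study's own plots show fewer cells than this filter leaves, and no cell annotation was used here.

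Cells were clustered with scanpy 1.11.5 on 2000 variable genes (none a member), 20 principal components and Leiden resolution 1. A cluster was named from at least 3 markers that were 2-fold enriched and present in 20% of its cells. Clusters with 4 markers of another class were called mixed, and those with a median UMI count below one in 3 of their library's were called shallow. These thresholds, and a doublet score threshold of 0.85, were set after clusters and scores were seen. The doublet score marked 4.28% of the E3 library and 5.60% of the E4 library. Marked cells were kept except in one alternative.

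UMIs were summed per library and class. Levels have exact Poisson and ratios exact binomial 95% intervals. The computation was tested on simulated data. All 77 members matched GENCODE vM21. A gene entered a count of ratios with a minimum of 50 UMIs over both libraries in the cells compared, and fold differences were counted from 1.2-fold. Genes were named by a fixed rule: over all cells the 8 highest and 8 lowest ratios among members with 500 UMIs, in each class the 3 highest and lowest with 100 UMIs, and between classes the 8 widest and 4 narrowest spans with 1000 UMIs. The rule also took the 4 members with the most UMIs, those on chromosome 7, Mrps18a and Mrps18b, neighbours of named members, and Mrps12 and Mrpl9, which the study names. Other members with a distinct pattern between classes (Mrps5, Mrpl39 and Mrpl48 among them) were chosen after their values were seen. The members and lists were chosen with earlier results of these data known.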

Additional observations from a re-analysis of the deposited data

How the results depend on the processing

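No paired analysis was possible because each genotype has 1 library, so no library could be left out either. Values here are log2 ratios of E4 to E3 unless a fold is named. The sum over all cells stayed below 0 in 8 of 8 alternatives (-0.11 to -0.061), 55 to 63 members were lower, and Mrps12 stayed between 0.40 and 0.47. The stricter cell filter (500 UMIs, 10% mitochondrial) gave -0.091 for the sum and -0.077 for the median over all cells, -0.11 for the astrocyte-like sum, and a span between classes of 14.9-fold, or 2.27-fold without erythroid-like cells. Without marked doublets the astrocyte-like sum was -0.066, its median -0.058 and the span 14.4-fold. Totals without mitochondrial, haemoglobin and rRNA-overlapping genes gave a sum of -0.11 and a median of -0.093 over all cells. They gave -0.12 and -0.11 in astrocyte-like, -0.077 and -0.059 in endothelial-like and -0.067 and -0.062 in microglia-like cells, and a span of 2.07-fold, since haemoglobin then leaves the erythroid-like total. Thinning to 1000 UMIs, which left out 1311 E3 and 1523 E4 cells, turned the endothelial-like sum to 0.0079 and median to 0.0058. Fewer members kept 50 UMIs in thinned cells, 10 in ependymal-like, 34 in neuroprogenitor-like, 45 in choroid plexus-like and 57 in oligodendrocyte-like cells, so that their medians rest on fewer members. Thinning gave medians of -0.078 over all cells, -0.10 in astrocyte-like, -0.055 in choroid plexus-like (sum -0.069), -0.11 in ependymal-like, -0.16 in neuroprogenitor-like and -0.12 in oligodendrocyte-like cells, and spans of 17.4-fold and 2.21-fold. Leiden resolution 0.5 gave a span of 19.1-fold, and classes weighted alike in both libraries gave a sum of -0.061. The causes of the other differences were not tested. Counting only named classes was added after seeing the data. Depth limits single members in the smaller classes, where most intervals held 0.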
